A study of Mus musculus with 3 samples.

Results

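The comparison of 8-M-PDOT with vehicle in cultured mouse sensory neurons rests on 2 of the 3 arrays of the series, chosen by their treatment labels and by no measured value. Primary dorsal root ganglion neurons, the sensory neurons whose fibres carry touch and pain, came from C57BL/6 mice aged 5 to 9 days and were grown for 5 days. One culture then received vehicle (1% ethanol in saline) for 24 h and the other received 100 µM 8-M-PDOT for the same time, while the other array of the series holds a culture given 1 mM melatonin. The labels state neither the solvent of the 8-M-PDOT culture nor whether animals were pooled, and each condition has 1 array, so no test between conditions was possible and every difference below describes these arrays alone.

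8-M-PDOT is an agonist of the melatonin receptor 1B, per the labels. Melatonin receptors are membrane receptors that act through inhibitory G proteins and lower cyclic AMP in the cell. Cultures of dorsal root ganglia usually also hold satellite glia, Schwann cells and fibroblasts, and in RNA from a whole culture fewer cells of a type and less RNA per cell cannot be told apart. Of the 7 marker lists for neurons, glia and other cells, 0 genes could be named on the array, so the neuronal label was not checked against markers here.

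The array carries probes for coding and long non-coding transcripts and is read in 1 colour. Signals were divided by the 75th percentile of their array, which was 477 intensity units on the vehicle array and 328 on the 8-M-PDOT array. The result is called relative signal below, and a log2 ratio is always 8-M-PDOT over vehicle unless melatonin is named. A probe was measured when it stood well above background on at least 1 of both arrays, which held for 47822 of 60846 probes. The vehicle array had 44580 probes well above background and the 8-M-PDOT array 45007, with 0 saturated spots on either.

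Only 15 probes are paired with a gene in the files, each through a RefSeq accession, and most of these genes serve as reference genes in expression work. Of the 15, 3 were at least 2-fold higher on the 8-M-PDOT array (B2m, Actb and Rpl13a) and 2 were at least 2-fold lower (Hprt and Tbp). These shares, 20% and 13.3%, stand beside 17.1% of all measured probes higher and 15.8% lower (32.9% in either direction), so the named genes passed 2-fold about as often as probes in general. Their median log2 ratio was 0.02, and that of all measured probes was -0.04. Each named probe has 20 spots, of which 14 to 20 remained after outlying spots were left out, and the SD given with a gene is over those spots and is technical.

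**Figure D1:**
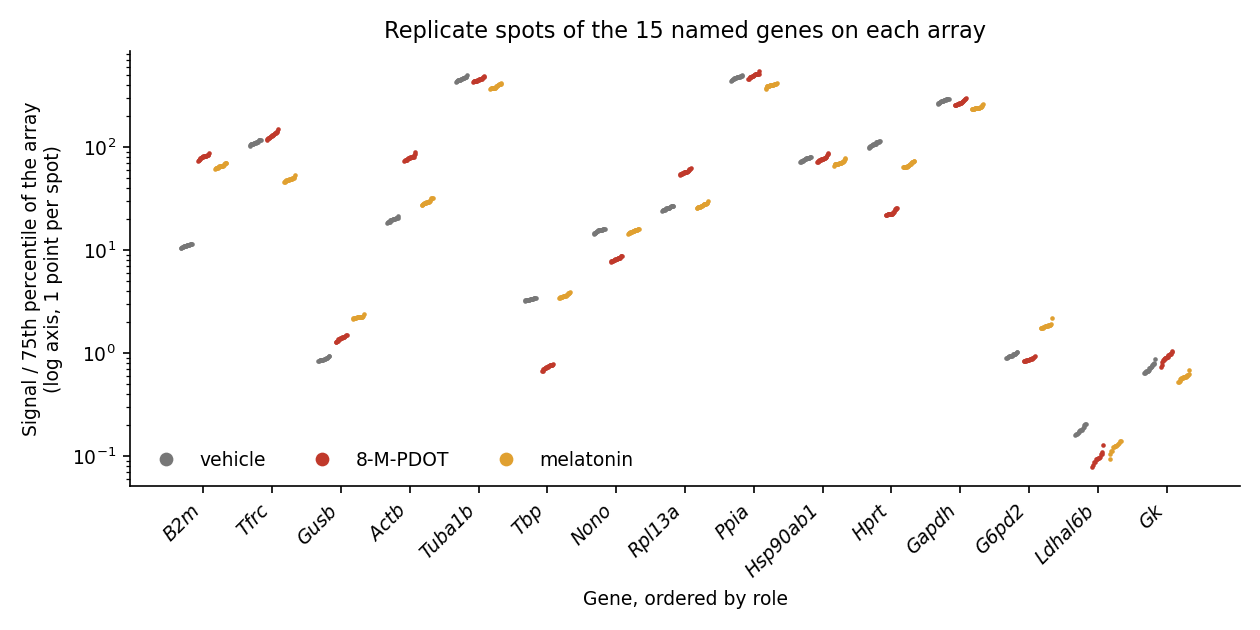
Relative signal (signal over the 75th percentile of its array, log axis) of every spot used for the 15 named genes, with 1 point per spot and the vehicle, 8-M-PDOT and melatonin arrays side by side. B2m, Actb and Rpl13a sit above their vehicle values on the 8-M-PDOT array, Hprt and Tbp below theirs, and the spots of these 5 genes do not overlap between the 2 arrays.

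B2m encodes beta-2-microglobulin, the small chain that major histocompatibility complex class I molecules need to reach the cell surface. Its spots read 10.4 to 11.5 on the vehicle array (median 11.1) and 74.0 to 86.8 on the 8-M-PDOT array (median 81.2). All 8-M-PDOT spots lay above all vehicle spots, and the log2 ratio was 2.86 ± 0.05 (SD, 19 spots), or 7.28-fold. Of all measured probes, 3.58% had a ratio at least as high. On the melatonin array B2m was also high, with a median of 65.5.

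Actb encodes beta-actin, the main actin of the cell cortex and of growth cones. Its relative signal was 18.5 to 21.3 on the vehicle array (median 19.96) and 74.0 to 89.3 on the 8-M-PDOT array (median 79.2). The log2 ratio was 2.00 ± 0.06 (SD, 19 spots), 7.01% of measured probes were as high, and the spots did not overlap. On the melatonin array the median was 29.2, between the other arrays. The other cytoskeleton gene, Tuba1b, an alpha-tubulin of microtubules, had medians of 461 and 452 with overlapping spots and a log2 ratio of -0.02 ± 0.04. Across the processing settings the Tuba1b ratio ran from -0.42 to -0.02.

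Rpl13a encodes a protein of the large ribosomal subunit. It read 24.2 to 27.1 on the vehicle array (median 25.6) and 53.6 to 62.2 on the 8-M-PDOT array (median 57.2), a log2 ratio of 1.16 ± 0.03 (SD, 20 spots). The melatonin array, with a median of 27.2, stood close to vehicle for this gene. Of measured probes, 14.4% were at least as high, so Rpl13a was the least unusual of the 3 higher genes.

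Hprt encodes the enzyme that salvages hypoxanthine and guanine into purine nucleotides. Its relative signal was 98.6 to 114.6 on the vehicle array (median 107) and 21.8 to 25.8 on the 8-M-PDOT array (median 22.6). The log2 ratio was -2.21 ± 0.08 (SD, 20 spots), or 4.63-fold lower, and 3.26% of measured probes were as low. The melatonin median of 66.2 lay between the other arrays. Tbp encodes the TATA-binding protein, which helps to place RNA polymerases at promoters. It read 3.18 to 3.45 on the vehicle array (median 3.32) and 0.68 to 0.79 on the 8-M-PDOT array (median 0.74), a log2 ratio of -2.18 ± 0.08 (SD, 18 spots). On the melatonin array Tbp was close to vehicle, at a log2 ratio of 0.12, and 3.38% of measured probes were as low as Tbp.

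The promoters of B2m, Rpl13a, Hprt and Tbp are shown because these genes stood past 2-fold and have an entry in the RefSeq promoter table (GRCm38.p6, 250 bases before to 50 after the start). The array measured RNA and not promoter activity, and the letters are given as description. Capitals mark matches on either strand to 5 motifs. The TATA box was searched as TATAAA, the box bound by nuclear factor Y as CCAAT, and the box bound by Sp1-like factors as GGGCGG. The E-box, which clock factors bind, was searched as CACGTG. The core of the interferon response element was searched as GAAA followed, after any pair of bases, by a second such run. Those of B2m and Rpl13a, the higher genes, lie at chr2:122147437-122147736 (plus strand) and chr7:45128696-45128995 (minus strand).
B2m: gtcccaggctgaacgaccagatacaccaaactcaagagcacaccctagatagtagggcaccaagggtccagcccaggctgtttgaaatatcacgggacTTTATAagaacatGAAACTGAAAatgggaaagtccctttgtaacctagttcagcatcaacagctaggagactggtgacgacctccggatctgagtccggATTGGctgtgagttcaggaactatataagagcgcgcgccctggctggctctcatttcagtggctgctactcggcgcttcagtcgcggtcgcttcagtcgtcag
Rpl13a: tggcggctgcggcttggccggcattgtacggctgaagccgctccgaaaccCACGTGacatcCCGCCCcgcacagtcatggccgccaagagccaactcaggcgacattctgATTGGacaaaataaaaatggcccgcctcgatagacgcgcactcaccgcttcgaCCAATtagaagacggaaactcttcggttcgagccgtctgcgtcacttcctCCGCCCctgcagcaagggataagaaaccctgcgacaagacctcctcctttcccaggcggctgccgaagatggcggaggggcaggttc
Those of Hprt and Tbp, the lower genes, lie at chrX:52987828-52988127 and chr17:15499638-15499937, both on the plus strand.
Hprt: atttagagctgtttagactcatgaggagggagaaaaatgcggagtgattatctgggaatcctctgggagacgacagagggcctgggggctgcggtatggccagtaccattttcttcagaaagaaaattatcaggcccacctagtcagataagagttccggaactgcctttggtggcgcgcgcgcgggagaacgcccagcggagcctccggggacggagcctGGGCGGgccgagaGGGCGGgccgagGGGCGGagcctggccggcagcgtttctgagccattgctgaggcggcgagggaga
Tbp: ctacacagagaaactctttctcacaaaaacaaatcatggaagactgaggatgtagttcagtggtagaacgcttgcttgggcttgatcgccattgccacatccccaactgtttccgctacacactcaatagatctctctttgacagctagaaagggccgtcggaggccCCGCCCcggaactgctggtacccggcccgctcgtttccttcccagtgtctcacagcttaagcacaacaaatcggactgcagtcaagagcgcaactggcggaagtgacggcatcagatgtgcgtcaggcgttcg

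B2m alone of the 4 holds the interferon response element core, which 3.44% of the 32851 promoter entries in the table hold. It also holds a TATA box match (13.6% of entries) and a CCAAT box match (37.4%), both read on the opposite strand. The TATA box match lies at -152 to -147 from the start, and only exact matches to TATAAA were marked. Whether it acts as a TATA box was not tested. Rpl13a holds an E-box (7.15% of entries), GC boxes and CCAAT boxes. Hprt holds 3 GC boxes close to its start and Tbp 1, a motif found in 35.7% of entries, and neither holds another motif of the 5.

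The other 10 named genes lay within 2-fold. Nono, which encodes a nuclear RNA-binding protein of paraspeckles, was closest to the threshold among the bright ones, with medians of 15.6 and 8.16 and a log2 ratio of -0.91 ± 0.06. Its spots did not overlap between the arrays, and on the melatonin array its median was 15.4, near vehicle. Median scaling put it past 2-fold, at -1.06.

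Genes of the endosome and lysosome differed less between 8-M-PDOT and vehicle than between melatonin and vehicle, arrays that share the vehicle. Gusb, which encodes the lysosomal enzyme that removes glucuronic acid from glycans, had medians of 0.87, 1.41 and 2.23 on the vehicle, 8-M-PDOT and melatonin arrays. Its 8-M-PDOT log2 ratio was 0.66 ± 0.08, with spots that did not overlap. Tfrc, the receptor that brings transferrin-bound iron into cells, had medians of 111, 131 and 48.6 on those arrays, and its 8-M-PDOT log2 ratio of 0.25 ± 0.10 came with overlapping spots. Across the processing settings the Tfrc ratio ran from 0.01 to 0.25.

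The abundant genes Ppia, Hsp90ab1 and Gapdh were close on both arrays. Ppia (cyclophilin A, a folding enzyme) had medians of 475 and 496, Hsp90ab1 (a chaperone) 76.4 and 77.1, and Gapdh (a glycolytic enzyme) 282 and 267. Their spots overlapped, with log2 ratios of 0.07 ± 0.06, 0.02 ± 0.07 and -0.05 ± 0.05. Across the processing settings, however, Ppia ran from -0.33 to 0.07 and Hsp90ab1 from -0.13 to 0.02, so neither sign is settled. Gapdh ran from -0.45 to -0.05 and so stayed below 0, with a size that depends on the processing. Separate control probes on the array for GAPDH and PGK1 of mouse, human and rat, 12 in all, had log2 ratios from -0.59 to -0.05, so all lay below 0. Those for the ends of mouse GAPDH were at -0.20 and -0.29, and those of mouse PGK1 at -0.42 and -0.38.

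The dimmer metabolic genes completed the set. G6pd2, a retrogene copy of a pentose phosphate pathway enzyme, had medians of 0.95 and 0.87 and a log2 ratio of -0.14 ± 0.08. Gk, which encodes glycerol kinase, had medians of 0.71 and 0.92 and a log2 ratio of 0.34 ± 0.15, and both genes had overlapping spots. Ldhal6b, a retrogene related to lactate dehydrogenase, was the dimmest, with medians of 0.18 and 0.10 and a log2 ratio of -0.90 ± 0.23. Its ratio ranged from -1.10 to -0.22 over the 6 alternative ways to process the arrays. G6pd2 and Ldhal6b are close copies of other genes, and Ppia, Gapdh, Actb, Tuba1b and Rpl13a have many processed pseudogenes, so a probe may read more than 1 transcript.

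Of the 10 gene lists, 4 had a named member. The housekeeping list had 12 of its 13 genes named, with 3 higher, 2 lower and a median log2 ratio of 0.04. All measured probes had 17.1% higher, 15.8% lower and a median of -0.04. Its genes past 2-fold are those already counted among the 15, so the list adds no separate result. Cytoskeleton had 2 (Actb and Tuba1b), class I antigen presentation 1 (B2m) and glycolysis 1 (Gapdh). The other 6, which cover nociceptor channels and peptides, melatonin receptors and clock genes, interferon targets, nerve injury, oxidative stress and unfolded protein, had 0 members named and were not analysed here.

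Probes named for long intergenic non-coding RNAs, transcripts that lie between coding genes, were less often on the lower side than all probes were. Of 930 such probes that were measured, 179 (19.2%) passed 2-fold on the higher side and 59 (6.34%) on the lower side. For all measured probes these shares were 17.1% and 15.8%, so at 2-fold the higher share was near the background and the lower share below it. At 4-fold, 92 of the 930 were higher and 7 lower, beside 6.99% and 4.36% of all measured probes. The higher share was thus above the background at that threshold. The lincRNA-named probes were dimmer, with a median mean log2 relative signal of -3.09 against -1.51 over all measured probes. All measured probes were also split by brightness into 10 equal bins. In the dimmest bin 5.00% were higher and 0% lower, and that 0 was fixed by the floor, as described below. In the second dimmest bin 26.9% were higher and 13.4% lower, and in the next 20.9% were higher and 11.6% lower. How the lincRNA-named probes spread over these bins is not given here. Over probes well above background on both arrays, 92 of 659 lincRNA-named probes were higher (13.96%) and 44 lower (6.68%), beside 15.1% and 16.6% of all such probes. At 2-fold the lower share was therefore the one that stood away from all probes under both filters, and the difference was not tested. For melatonin, against the same vehicle array, 1.89% of lincRNA-named probes were higher and 2.01% lower, beside 6.09% and 5.14% of all measured probes (11.2% in either direction).

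By name, 97 of 531 humanlincRNA probes were higher and 38 lower, 68 of 340 mouselincRNA probes were higher and 18 lower, and 14 of 59 MM9LINCRNAEXON probes were higher and 3 lower. The smallest family thus had the highest share above 2-fold, 23.7% beside 17.1% of all measured probes, and a median log2 ratio of 0.46. Over probes well above background on both arrays, 12 of 43 of it were higher (27.9%) and 1 lower. Over the same filter 12.8% of humanlincRNA and 13.3% of mouselincRNA probes were higher, below the 15.1% of all such probes. On the melatonin array, which shares the vehicle, 0 of 53 measured MM9LINCRNAEXON probes were 2-fold higher and 1 was lower, beside 6.09% and 5.14% of all measured probes. That family holds few probes, and its difference from all probes was not tested. Probes with the stem ASMM10UP, whose meaning is not given in the files, had 17.9% higher and 15.9% lower, close to all probes.

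**Figure D2:**
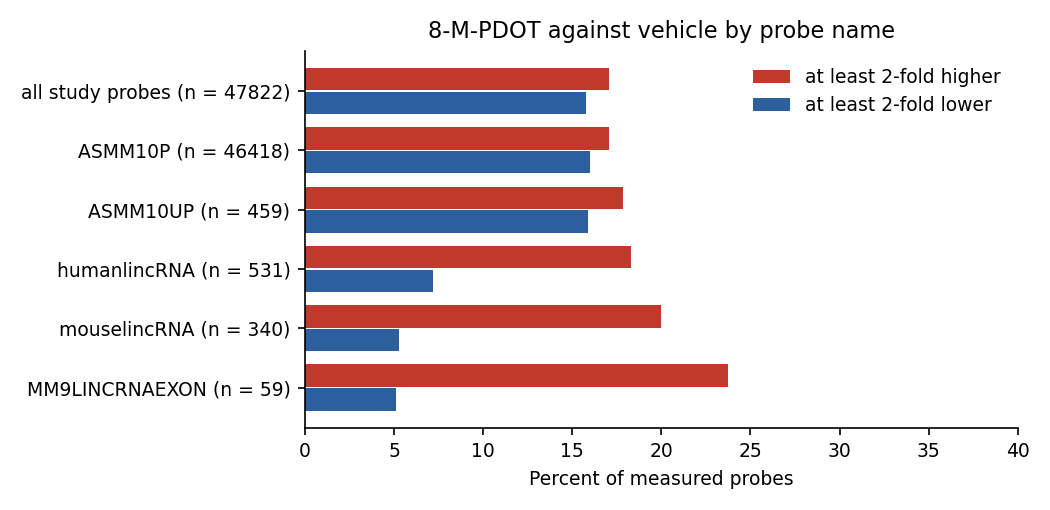
Share of measured probes (percent) past 2-fold on the higher (red) and lower (blue) side, by the stem of the probe name, with the number measured in brackets. The lincRNA-named families show 5.08% to 7.16% lower, beside 15.8% of all measured probes. Their higher shares run from 18.3% to 23.7%, beside 17.1%.

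Many of the lincRNA probes come as pairs whose names differ only in the plus or minus sign. Of 545 humanlincRNA pairs, 101 were well above background at both signs on the vehicle array and 97 on the 8-M-PDOT array, while 247 and 258 were so at 1 sign only. Most detected pairs were thus read from 1 sign, on both arrays alike. Of the 131 humanlincRNA pairs measured at both signs, 55 had 1 member past 2-fold, 5 had both members higher, 1 both lower and 0 in opposite directions. Of 91 mouselincRNA pairs, 49 had 1 member past 2-fold, 2 had both higher, 0 both lower and 1 in opposite directions. Counted singly, 25.6% of the humanlincRNA and 30.2% of the mouselincRNA probes in these pairs were past 2-fold, beside 32.9% of all measured probes.

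Across the whole array the comparison was wide. The log2 ratio had an SD of 1.37 over probes, its central 50% ran from -0.65 to 0.65 and its central 90% from -1.90 to 2.41, and 40.1% of measured probes lay within 0.5 of 0. For melatonin against the same vehicle array the SD was 0.69 and 67.4% lay within 0.5 of 0. Both comparisons share the vehicle array, and with 1 array a condition an effect of the agonist and a spread between cultures or arrays cannot be told apart.

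The far ends were unequal. At least 4-fold, 3345 probes were higher (6.99%) and 2085 lower (4.36%), and at least 8-fold 1521 (3.18%) and 525 (1.1%). At 16-fold the counts were 751 (1.57%) and 132 (0.276%), and at 32-fold 398 (0.832%) and 27 (0.0565%). The ratio of higher to lower probes thus grew with the threshold, while at 1.5-fold lower probes were slightly more frequent, 13027 against 12807. At 32-fold the order held in all 8 alternative settings, which gave from 189 to 619 higher and from 10 to 38 lower.

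**Figure D3:**
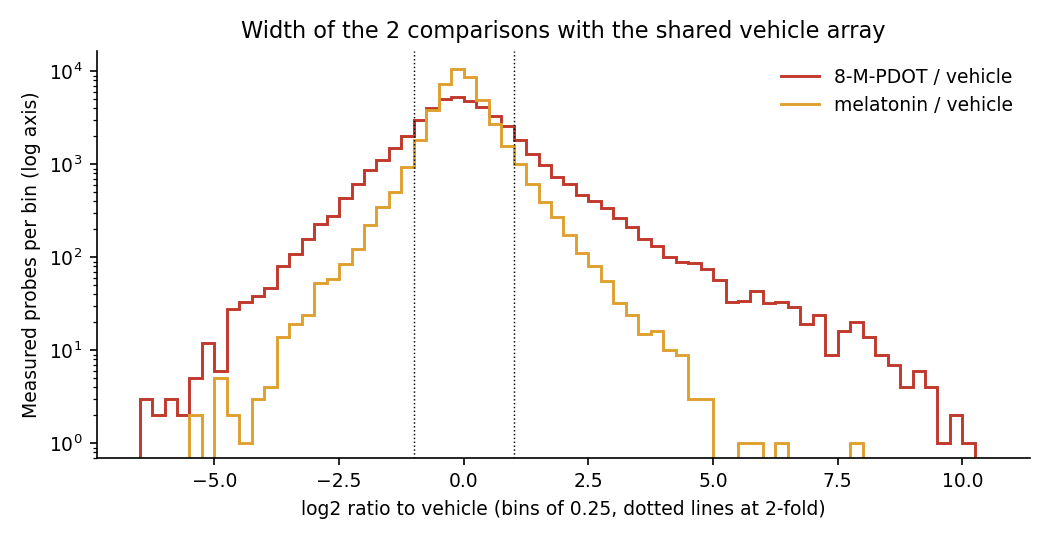
Number of measured probes per bin of 0.25 log2 units (log axis) for 8-M-PDOT over vehicle and melatonin over vehicle, which share the vehicle array, with dotted lines at 2-fold. The 8-M-PDOT distribution is the wider (SD 1.37 against 0.69), and its right side reaches 10.06 while its left side ends at -6.37.

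The 398 probes at least 32-fold higher were dim on the vehicle array and bright on the 8-M-PDOT array, with median relative signals of 0.060 and 7.74. Of these, 252 were well above background on both arrays, and for the rest the ratio is a lower bound against the floor of the vehicle array. On the melatonin array their median was 0.0998, above vehicle and far below 8-M-PDOT, and their median melatonin log2 ratio was 0.50 (range -0.90 to 7.95), where the central 50% of all probes for melatonin ended at 0.26. Of the 398, 371 carry the ASMM10P stem while 20 are lincRNA-named. Of all 47822 measured probes, 46418 carry that stem and 930 are lincRNA-named, so the lincRNA-named share was larger among the 398. The 27 probes at the low end ran from a median of 9.78 on the vehicle array to 0.245 on the 8-M-PDOT array, with 3.01 on the melatonin array. Such probes were chosen for their ratio, so these levels describe them and test nothing. The spike-in control (+)E1A_r60_a107, left out of these counts, had a profile like the higher ones. It read 0.080, 0.186 and 21.2 on the vehicle, melatonin and 8-M-PDOT arrays. Whether this bears on the 398 probes was not tested.

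The probes at the ends have no gene in the files, and those named here were picked among probes well above background on both arrays. Over all measured probes the highest log2 ratio was 10.06. ASMM10P013598 read 0.188 on the vehicle array, 0.642 on the melatonin array and 173 on the 8-M-PDOT array, a log2 ratio of 9.85. ASMM10P043523 read 0.058, 0.284 and 47.4, a log2 ratio of 9.67. Both were thus far above the other arrays only with 8-M-PDOT. ASMM10P046152 and ASMM10P038243 had the lowest ratios, -6.37 and -6.33, from 27.9 to 0.338 and from 10.1 to 0.126, and on the melatonin array they stood between, at 7.90 and 3.02.

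Detection moved in both directions. Of the measured probes, 41765 were well above background on both arrays, 3242 on the 8-M-PDOT array alone and 2815 on the vehicle array alone. Of those seen on the 8-M-PDOT array alone 1853 were at least 2-fold higher against the floor, and of those seen on the vehicle array alone 618 were at least 2-fold lower. Over all 3 arrays, 2177 probes were well above background on the 8-M-PDOT array only, against 883 on the vehicle array only and 859 on the melatonin array only. Likewise 1932 were missing from the 8-M-PDOT array only, against 1065 from the vehicle array and 527 from the melatonin array. Among the 3 arrays the 8-M-PDOT array thus had the most probes seen on it alone and the most missing from it alone.

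The balance of higher and lower probes changed with brightness. In the second dimmest of the 10 bins 26.9% were higher and 13.4% lower, and in the second brightest 16.5% were higher and 28.0% lower. The median log2 ratio went from 0.15 to -0.34 between those bins, and the SD from 1.05 to 1.67. In the dimmest bin 239 probes were higher and 0 lower, and that bin spans mean log2 values of -4.57 to -4.04, next to the floors of -4.63 and -4.51. With the 8-M-PDOT floor of -4.51, no 2-fold lower probe can have a mean in that bin, so the 0 was fixed by the floor. In the brightest bin 14.2% were higher and 21.1% lower.

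**Figure D4:**
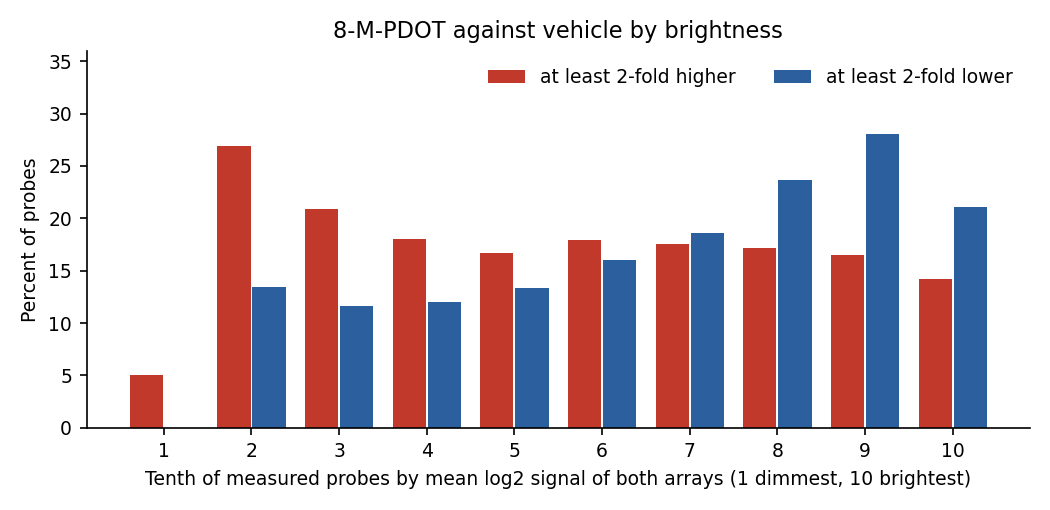
Share of measured probes (percent) past 2-fold on the higher (red) or lower (blue) side in each of 10 equal bins by mean log2 signal of both arrays, from dimmest (1) to brightest (10). Higher probes outnumber lower ones in bins 1 to 6, and lower probes outnumber higher ones in bins 7 to 10.

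The very brightest probes lay within 2-fold. Of the 100 probes brightest on the vehicle array, 0 were past 2-fold, with log2 ratios from -0.95 to 0.73 and a median of 0.36, and 77 were also among the 100 brightest on the 8-M-PDOT array. Of the 1000 brightest on the vehicle array, 27 were higher and 109 lower, and 743 stayed among the 1000 brightest, where the melatonin array shared 868 with vehicle. Ranked on the 8-M-PDOT array instead, the 1000 brightest had 176 higher and 0 lower, so the direction follows the array that ranks them. The 1000 brightest probes of each array held 51.5% of all signal on the vehicle array, 52.0% on the melatonin array and 58.9% on the 8-M-PDOT array, the highest share of the 3. The scaling to the 75th percentile does not touch these shares.

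Along the numbers of the ASMM10P probes the shares were uneven. Among those numbered below 10000, 949 of 8707 measured probes were higher (10.9%) and 1536 lower (17.6%). Among those numbered 10000 and above, 6958 of 37711 were higher (18.5%) and 5875 lower (15.6%). Lower probes thus outnumbered higher ones among the low numbers, at a like median brightness (-1.45 and -1.46). Over probes well above background on both arrays, the low numbers had 9.82% higher and 17.9% lower, while the others were even, with 5398 higher and 5406 lower. The low-numbered probes were also seen more often, 84.0% of them being well above background on the vehicle array against 72.8% of the others. The files do not say how the numbers were given, and this grouping was chosen after the values were seen.

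In blocks of 2000 numbers, the 5 blocks below 10000 had between 10.1% and 11.3% higher. Of the 25 later blocks the median was 18.7% and the range 10.51% to 24.0%, the lowest being the block from 54000 to 55999 and the highest the short last block of 167 measured probes. For melatonin against vehicle, the share higher was 5.12% below 10000 and 6.35% above, and the share lower 3.16% and 5.71%. Whether the place of spots on the slide bears on these shares was measured only over the array as a whole. Across eighths of the array by row or column the median log2 ratio stayed between -0.12 and -0.03, and the share of spots 2-fold higher between 14.4% and 16.7%.

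**Figure D5:**
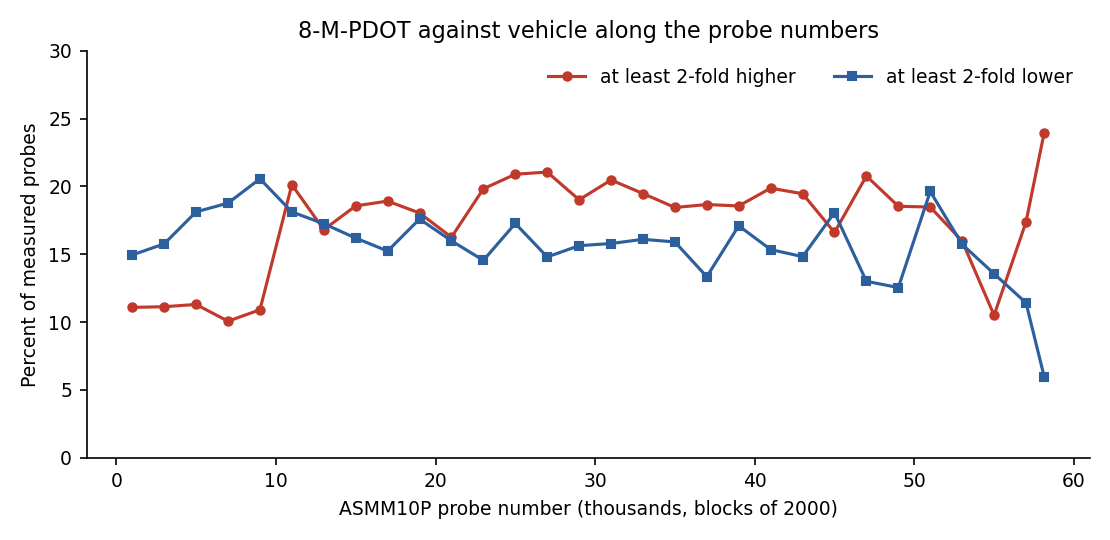
Share of measured ASMM10P probes (percent) past 2-fold on the higher (red circles) and lower (blue squares) side in successive blocks of 2000 probe numbers. The first 5 blocks lie at 10.1% to 11.3% higher, below their own lower shares of 14.95% to 20.6%, while the median of the 25 later blocks is 18.7% higher.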

How the data were processed

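Per the labels, RNA from 3 cultures (1 a condition) was marked with Cy3 and read on Arraystar mouse arrays in 1 colour. The scanner files deposited by the authors give each spot an intensity from which background and a spatial trend were subtracted. A multiplicative trend was also fitted on the 8-M-PDOT and melatonin arrays (root mean square 0.0437 and 0.0463), while the vehicle header lists 0; the part of this in the ratios was not tested. Agilent Feature Extraction 11.0.1.1 did this, as the file headers and the submitters' processing notes say. Other columns, deposited too, flag spots as above background, saturated or outlying. The log2 value table deposited by the authors has 60902 rows, and how it was normalized was not given in the sources used here. All arrays lay on 1 slide and shared 1 scan, per the file headers, so position on the slide goes with condition.

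The log2 processed signal of a probe was the mean over its spots, without control spots, without 15 probes for negative controls and without 89 spots that any array marked as outlying. The 75th percentile of the array was then subtracted. Dim values were raised to the dimmest signal that still stood well above background there (19.3 units for vehicle and 14.4 for 8-M-PDOT), so ratios against them are lower bounds. Probes past 2-fold, the threshold in the series design, were counted, and no p-value was computed. The paired t-test and random variance model in the series design need replicates and were not run. The counting step was first tried on simulated data, made by copying the vehicle array with added noise and known changes in brighter probes. Both simulated arrays had the same probes above background. Calls of probes seen on a single array were therefore not tried.

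Named genes are those the files pair with a probe by an accession, 15 of 15 matching the reference table (GRCm38.p6). The grid names mm9, so no probe coordinates are given. At most 2 probes without a gene are named at each end. Genes, lists and groupings were chosen with earlier results of these data known. Alternatives used limma 3.58.1 in R 4.3.3 (normexp, offset 50), other scalings, filters and thresholds, and the deposited table. The number of arrays limits the precision.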

Additional observations from a re-analysis of the deposited data

Results flagged for a closer look

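The 65 control probes other than corner spots are left out of the comparison. Of the 34 measured, 5 read at least 2-fold higher on the 8-M-PDOT array than on the vehicle array, the sample without agonist, and 1 read lower. Of all measured probes, 17.1% were higher and 15.8% lower, so the controls were not higher more often than probes in general. The 34 include the 12 probes for GAPDH and PGK1, with log2 ratios from -0.59 to -0.05. All 5 higher controls and the lower one are thus among the other controls, whose share taken alone was not computed. The spike-in control (+)E1A_r60_a107 had a log2 ratio of 8.05 ± 0.20 (SD, 35 spots), with mean relative signals of 0.080 on the vehicle array, 0.186 on the melatonin array and 21.2 on the 8-M-PDOT array. All 35 of its spots were well above background on each array. A second spike-in control, (+)E1A_r60_n11, had a log2 ratio of 1.07 ± 0.30 over 32 spots. The external controls ERCC-00062_278 and ETG05_36762 had log2 ratios of 1.20 ± 0.13 and 1.14 ± 0.14 over 30 and 9 spots. ETG09_48764 was not well above background on the vehicle array (0 of 12 spots) but was on the 8-M-PDOT array (12 of 12), at least 4.66-fold higher against the floor. The lower one, ERCC-00104_60, had a log2 ratio of -1.56 ± 0.25 over 26 spots. What these probes bound was not tested.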

How the results depend on the processing

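No paired analysis was possible because a condition holds a single array, and for that reason no replicate could be left out. The planned normexp setting on mean spot signals was not run, as the files used here hold median signals. Relative to the main median log2 ratio, median scaling shifted the median of all measured probes by -0.14, quantile normalization by -0.11, the deposited table by -0.11, normexp with the 75th percentile by 0.17 and no filter by 0.14. Of the 15716 probes past 2-fold, 10387 stayed past it in the same direction under normexp scaled to the 75th percentile. Under normexp plus quantile scaling 9633 did. In the 8 alternatives at that threshold, 0 passed 2-fold in the opposite direction. Under median scaling, which shifts all ratios alike, and under the changes of filter this could not happen, so those alternatives do not bear on it. B2m, Actb, Rpl13a, Hprt and Tbp stayed past 2-fold in all 6 alternatives run for genes. Of the 45 alternative values for counts and width, 26 stayed close and 19 moved.

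Against 8171 higher and 7545 lower, normexp plus quantile scaling gave 5064 and 4871, and normexp scaled to the 75th percentile put 4973 on the lower side. The 1.5-fold threshold gave 12807 and 13027, and the 4-fold threshold 3345 and 2085. The balance turned to more lower than higher under median scaling (7027 and 9118, so 43.5% of calls higher against 52.0%), quantile normalization (7533 and 8292), the deposited table (7526 and 8289) and the filter on both arrays (6318 and 6927), all within 1.5 times. The SD of 1.37 became 1.06 after normexp with the 75th percentile and 1.04 with quantile normalization. For lincRNA-named probes (179 higher and 59 lower), normexp plus quantile scaling gave 94 and 19, and normexp scaled to the 75th percentile put 15 on the lower side. Without a filter they were 330 and 158, and 92 were higher over probes well above background on both arrays. The 1.5-fold threshold gave 287 and 129, and the 4-fold threshold 92 and 7. Below ASMM10P number 10000, normexp with quantile normalization gave 6.73% higher and 9.85% lower, and above it 11.5% and 10.48%, settings added after seeing the data. The offset of normexp draws dim ratios towards 0, and signal over background limits the dim probes.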
